A study of Mus musculus with 12 samples.

Results

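The receptor for interferon-gamma (IFN-γ) and the JAK-STAT machinery behind it were followed as 9 transcripts in MC38 tumor cells with and without the RAC1 A159V mutation. The 9 genes were the receptor chains Ifngr1 and Ifngr2, the kinases Jak1 and Jak2, the transcription factors Stat2, Irf1 and Irf9, and the inhibitors Socs1 and Socs3. They were chosen by name, as the rows of the count table whose Ensembl identifiers map to these symbols in GENCODE M21. All 9 were found among the 33219 features of the table, and all 9 passed the filter on low counts that left 14340 genes for testing.

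MC38 is a colon adenocarcinoma line from C57BL/6 mice. The A159V cells carried this RAC1 substitution on both alleles after a CRISPR-Cas9 knock-in and were 1 edited clone, clone 9 where no other clone is named, whereas WT cells carried unedited RAC1. Both were injected under the skin of C57BL/6 mice aged 6 to 8 weeks, and the mice received 100 μg of IgG isotype control or of anti-PD1 every 3 days from day 3. On day 13 tumor cells were separated from the dissociated tumors with a magnetic kit that holds back other cells, and their RNA was sequenced. Each genotype was taken from 3 mice on IgG (WT IgG, A159V IgG) and 3 on anti-PD1 (WT anti-PD1, A159V anti-PD1), which makes 4 groups of n = 3. With 1 clone, effects of the substitution and of the clone cannot be told apart. A change of 1 codon leaves no mark in counts per gene, so the genotype labels could not be checked from the table.

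IFN-γ is a cytokine released mainly by activated T cells and NK cells. It binds a receptor of IFNGR1 and IFNGR2 chains, IFNGR1 holding the ligand, and the receptor-bound kinases JAK1 and JAK2 are then activated. The signal reaches DNA elements called gamma-activated sites (GAS), and IRF1, one of the first products, turns on further genes of antigen processing. STAT2 and IRF9 are subunits of the complex ISGF3, which binds interferon-stimulated response elements (ISREs) and serves mainly type I interferons. SOCS1 and SOCS3 are themselves induced by JAK-STAT signaling and close the loop by blocking the kinases.

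Sequence upstream of the members was read from the RefSeq promoter table (GRCm38.p6), which holds 250 bases before and 50 after each transcription start, and all 9 symbols matched. The GAS motif TTCNNNGAA was found in the promoters of Irf1 and Socs3, and the ISRE core, which is GAAA repeated after any 2 bases and was searched on both strands, in those of Socs1 and Stat2. Over the 32851 promoters in the table, 8.30% held the GAS letters and 3.44% the ISRE letters. No match was found in the windows of Ifngr1, Ifngr2, Jak1, Jak2 or Irf9, nor in the window of a second Irf1 start. The 250 bases before the start are printed 5′ to 3′ for Irf1, Socs1, Stat2 and Ifngr1, 4 members called lower in A159V IgG below, with the matches in capitals. Irf1 lies on the plus strand (chr11:53769764-53770013) with its GAS match at -90. Stat2 lies on the plus strand (chr10:128270248-128270497) with a match to the reverse complement of the ISRE core at -222. Socs1 lies on the minus strand (chr16:10785537-10785786) with ISRE matches at -83 and -77 that overlap. Ifngr1 (chr10:19591699-19591948, plus strand) holds neither motif and so has no capitals. For Socs3 only the 30 bases around the GAS match at -154 are shown (chr11:117969501-117969530, minus strand), since this RefSeq window falls inside the longer Socs3 gene of GENCODE.
Irf1: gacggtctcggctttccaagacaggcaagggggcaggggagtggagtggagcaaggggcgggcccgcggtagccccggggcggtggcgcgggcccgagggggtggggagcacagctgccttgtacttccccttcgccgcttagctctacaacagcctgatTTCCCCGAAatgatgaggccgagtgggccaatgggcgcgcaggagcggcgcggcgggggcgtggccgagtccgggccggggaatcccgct
Socs1: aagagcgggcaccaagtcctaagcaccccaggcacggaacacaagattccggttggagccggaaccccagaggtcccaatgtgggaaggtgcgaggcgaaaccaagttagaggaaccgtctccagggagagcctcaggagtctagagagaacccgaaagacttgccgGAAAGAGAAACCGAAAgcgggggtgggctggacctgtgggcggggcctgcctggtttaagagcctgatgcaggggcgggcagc
Stat2: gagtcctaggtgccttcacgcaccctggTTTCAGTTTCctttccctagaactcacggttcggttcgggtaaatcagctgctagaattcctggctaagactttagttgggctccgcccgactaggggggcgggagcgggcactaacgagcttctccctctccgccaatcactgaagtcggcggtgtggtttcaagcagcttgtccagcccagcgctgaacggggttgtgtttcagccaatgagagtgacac
Ifngr1: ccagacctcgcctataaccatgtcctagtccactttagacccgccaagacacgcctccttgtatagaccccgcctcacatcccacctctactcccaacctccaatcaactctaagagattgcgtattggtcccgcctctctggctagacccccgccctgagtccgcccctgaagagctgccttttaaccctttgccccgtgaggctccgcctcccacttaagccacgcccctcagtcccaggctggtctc
Socs3: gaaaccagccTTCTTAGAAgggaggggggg

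Total counts ranged from 14053582 to 21949942 per sample, and levels are given as CPM, the count of a gene relative to the TMM-scaled total of its sample. At these depths 3 counts corresponded to 0.144 to 0.201 CPM, and the lowest member count in any sample was far above that, at 282 for Socs1 in A159V anti-PD1. The sorted cells showed few epithelial markers, as Epcam was at 0 to 2 counts and Krt8, Krt18 and Krt19 at 0 to 25, and the summed level of 5 such markers was 0.703 to 4.02 CPM. Leukocyte RNA was not equal between groups. Ptprc, the pan-leukocyte marker CD45, had 17, 3 and 56 counts in WT IgG and 174, 212 and 134 in WT anti-PD1, against 0 to 5 in all A159V samples. The summed level of 12 leukocyte markers was 23.9 to 32.9 CPM in WT anti-PD1, against 9.97 to 12.9 in WT IgG, 14.1 to 15.1 in A159V anti-PD1 and 13.5 to 16.1 in A159V IgG. The T cell marker Cd3e was at 0 in 5 of 6 A159V samples. Not all leukocyte markers were low there. Of the 7 that were tested, 4 had higher and 3 lower estimates in A159V IgG than in WT IgG. By the test given below, 1 was called higher and 1 lower. Under anti-PD1, 3 were higher and 4 lower in A159V, and 3 were called lower. The summed level of 4 fibroblast markers was lower in A159V, at 120 to 163 CPM under anti-PD1 and 135 to 204 under IgG, than in WT, at 210 to 402 under IgG and 313 to 527 under anti-PD1. Under IgG, 3 of these 4 genes were called lower in A159V by the test below, and the estimate of 1 was higher. Under anti-PD1 all 4 estimates were lower, and 2 were called. In bulk RNA, fewer cells of a type and less RNA per cell cannot be told apart. Ifng RNA was nearly absent from the sorted cells, at 0 to 2 counts per sample. This does not measure IFN-γ in the whole tumor. By flow cytometry the study found IFN-γ-positive CD8 and CD4 T cells in MC38 tumors, at a lower frequency in A159V.

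The genotypes were first compared without anti-PD1. In A159V IgG versus WT IgG, Ifngr1, Stat2, Irf1 and Socs1 were lower and Jak1 was higher, so that 5 of 9 members were called, beside 28.0% of all genes tested (15.6% higher and 12.4% lower). At an unadjusted p under 0.05 there were 7 of 9, beside 40.3% of all genes. Genes were called at an edgeR quasi-likelihood adjusted p under 0.05 where the log2 fold change also exceeded 0.3 in size. The median log2 fold change of the 9 was -0.30, beside 0.02 over all genes tested. The 3 A159V values and the 3 WT values did not overlap for 8 of 9 members, beside 35.8% of all genes. A fit of these 6 samples alone called only Irf1, beside 10.3% of all genes. With the mean leukocyte marker level as a covariate, Jak1, Stat2 and Irf1 remained called, beside 13.5% of all genes. Upper-quartile scaling moved the median of all genes from 0.02 to -0.12 and the share of higher genes among all calls from 55.6% to 36.6% (45.0% with RLE size factors). All 5 members remained called in their direction under both scalings.

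Under anti-PD1 fewer members were called. In A159V anti-PD1 versus WT anti-PD1, Ifngr1, Socs1 and Socs3 were lower and no member was higher, 3 of 9 called beside 21.4% of all genes (10.2% called lower). The groups did not overlap for 5 of 9 members, beside 56.1% of all genes, and the median log2 fold change was -0.13 for the 9 and 0.06 for all genes. Among all calls 52.5% were higher, which became 40.2% with RLE and 34.2% with upper-quartile scaling, and both called the same 3 members. No member was called with the leukocyte covariate, under which 2 genes of all those tested were called. The covariate was 1.15 to 1.49 (centred log2 CPM) in WT anti-PD1 and at most 0.03 in the other 9 samples, so it and the WT anti-PD1 group largely coincide. The plot of members by mouse shows all 108 values.

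**Figure D1:**
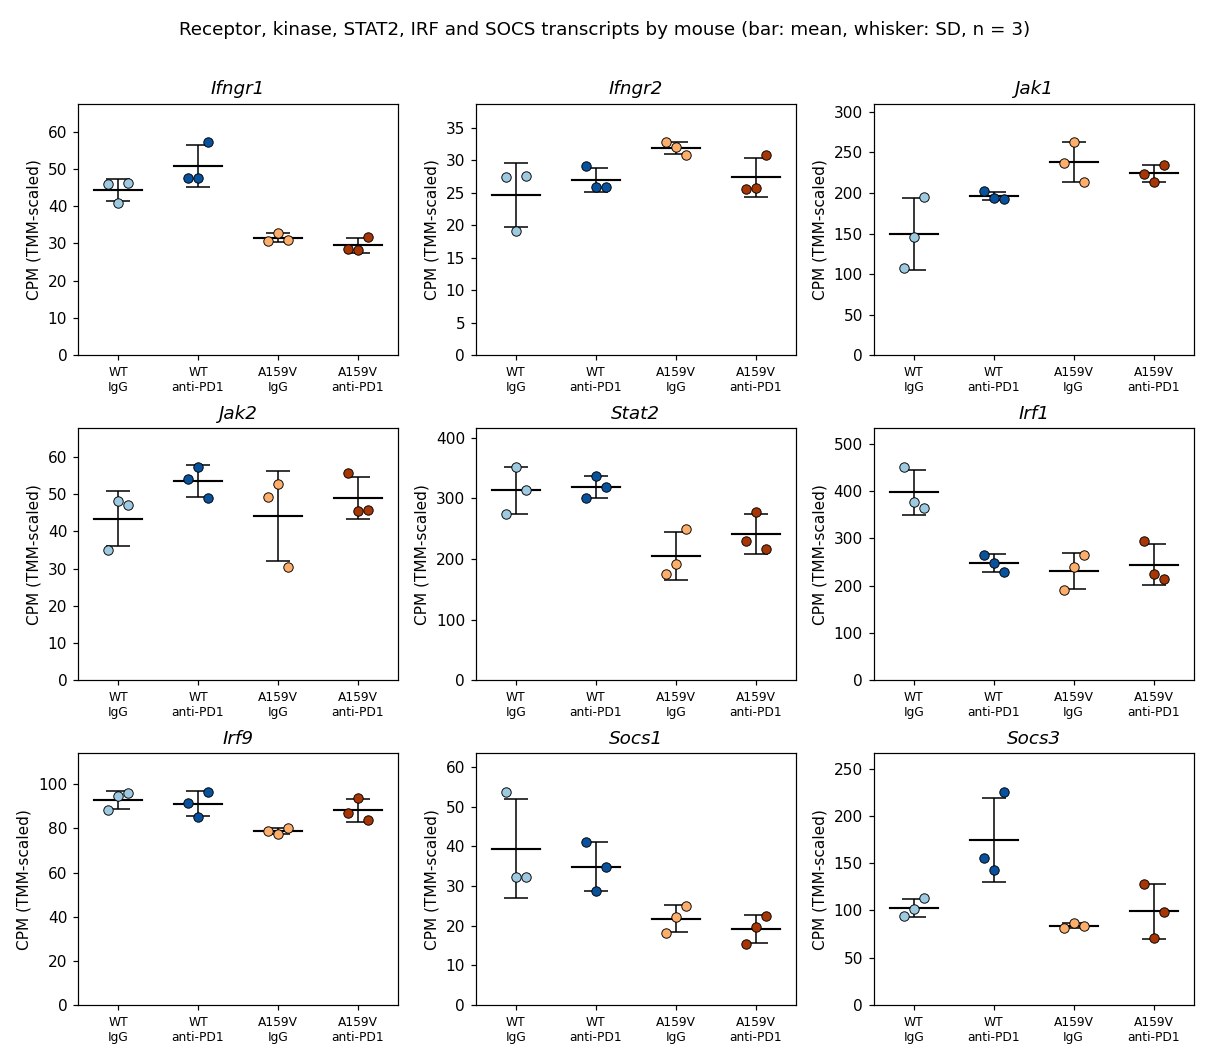
Expression of the 9 members in each mouse (points) as TMM-scaled CPM, from 0, in the 4 groups; bars are means and whiskers SD (n = 3). The 6 A159V values of Ifngr1 (28.1 to 32.9 CPM) all lie below the 6 WT values (40.9 to 57.2 CPM), and Irf1 is high in WT IgG alone.

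Of the receptor chains, Ifngr1 was lower in A159V cells with either treatment and Ifngr2 was not called. Ifngr1 (ENSMUSG00000020009, mm10 chr10:19591949-19610229), which encodes the ligand-binding chain, was at 45.8, 40.9 and 46.3 CPM in WT IgG and at 30.6, 32.9 and 31.0 CPM in A159V IgG. It was at 47.5, 47.7 and 57.2 CPM in WT anti-PD1 and at 28.5, 28.1 and 31.8 CPM in A159V anti-PD1. Every A159V mouse was thus below every WT mouse, which held for 17.2% of all genes tested in either direction. The fall was 1.41-fold under IgG (log2 fold change -0.49, SE 0.12, edgeR adjusted p = 0.0108) and 1.72-fold under anti-PD1 (-0.79, SE 0.12, adjusted p = 0.000925). Averaged over both treatments it was -0.64 (SE 0.09, adjusted p = 0.000128), and the fall did not differ detectably between treatments (difference -0.29, 95% interval -0.66 to 0.08). Leaving out any 1 of the 12 samples kept the call in both treatments. Under IgG the adjusted p was 0.0603 with only the 6 IgG samples and 0.0679 with the leukocyte covariate.

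Ifngr2 (chr16:91547072-91565623), the chain that brings JAK2, was at 27.4, 19.0 and 27.6 CPM in WT IgG and at 32.8, 31.9 and 30.8 CPM in A159V IgG, with no overlap. The log2 fold change of 0.37 (SE 0.15) did not pass the test (edgeR adjusted p = 0.0925). It ran from 0.14, without WT IgG replicate 2, to 0.46, without WT IgG replicate 4, when single samples were left out, and was not called in any of these fits. Under anti-PD1 WT mice were at 29.1, 25.9 and 25.8 CPM and A159V mice at 25.6, 25.7 and 30.8 CPM, and the log2 fold change was 0.02 (95% interval -0.31 to 0.35). Its sign turned to -0.05 with RLE size factors.

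The ratio of the receptor chains within a sample does not depend on how libraries are scaled. Log2(Ifngr1/Ifngr2), from counts with 0.5 added, was 0.86 ± 0.21 (SD, n = 3) in WT IgG and 0.91 ± 0.22 in WT anti-PD1, against 0.11 ± 0.06 in A159V anti-PD1 and -0.02 ± 0.08 in A159V IgG. Ifngr1 reads thus outnumbered Ifngr2 reads in all 6 WT samples and were about as many as Ifngr2 reads in A159V samples. The difference of -0.84 between genotypes had p = 0.005 in an exact two-sided permutation test within treatments, the smallest that its 400 relabelings allow, and adjusted p = 0.0075 over the 3 ratios tested. It was -0.88 under IgG and -0.80 under anti-PD1. The 3 ratios were chosen with earlier results of these data known, which the permutation test does not allow for. The share of other gene pairs that reach this smallest p was not computed.

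Of the kinases, Jak1 was higher in A159V cells and Jak2 was not called. Jak1 (chr4:101152367-101265282), the kinase bound to IFNGR1 and shared with type I interferon and many interleukin receptors, was at 107, 146 and 195 CPM in WT IgG and at 237, 263 and 214 CPM in A159V IgG. It rose 1.59-fold under IgG (log2 fold change 0.67, SE 0.18, edgeR adjusted p = 0.0152). WT IgG spread widely for this gene, and the log2 fold change was 0.41 without WT IgG replicate 1 and 0.91 without WT IgG replicate 4. The call was lost without WT IgG replicate 2 (0.58, adjusted p = 0.0705) or without A159V IgG replicate 2 (0.60, adjusted p = 0.0583). Under anti-PD1 Jak1 was at 202, 194 and 193 CPM in WT and at 224, 214 and 235 CPM in A159V. All A159V values were above all WT values, but the log2 fold change of 0.19 (95% interval -0.19 to 0.57) was not called.

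Jak2 (chr19:29251828-29313080), the kinase on IFNGR2, was at 34.9, 48.2 and 47.1 CPM in WT IgG and at 49.3, 52.8 and 30.5 CPM in A159V IgG. Its values overlapped between genotypes under IgG (log2 fold change 0.03, 95% interval -0.40 to 0.45, sign reversed to -0.05 with RLE size factors). They overlapped also under anti-PD1, with WT at 54.2, 57.4 and 49.1 CPM and A159V at 55.6, 45.4 and 45.9 CPM. Under IgG, log2(Jak1/Jak2) was 1.76 ± 0.25 for WT and 2.46 ± 0.30 for A159V. Under anti-PD1 it was 1.88 ± 0.11 in WT and 2.20 ± 0.18 in A159V. The ratio was higher in A159V by 0.52 (exact permutation p = 0.005, adjusted p = 0.0075 over the 3 ratios), by 0.71 under IgG and 0.32 under anti-PD1. This ratio too was chosen with earlier results known, which the test does not allow for.

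**Figure D2:**
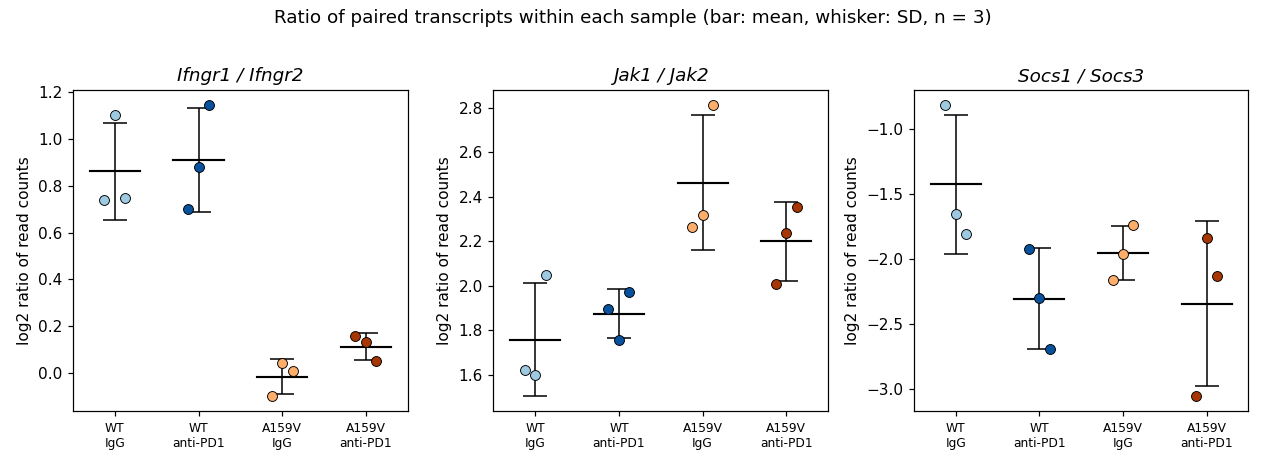
Log2 ratio of read counts in each sample (points) for the receptor chains, the kinases and the SOCS inhibitors in the 4 groups; bars are means and whiskers SD (n = 3). The Ifngr1/Ifngr2 ratio is 0.70 to 1.15 in the 6 WT samples and -0.10 to 0.16 in the 6 A159V samples. The Jak1/Jak2 ratio is higher in A159V within each treatment. Over both treatments its values overlap, with 2.05 in WT IgG replicate 4 and 2.01 in A159V anti-PD1 replicate 1. The Socs1/Socs3 ratios of the genotypes overlap.

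Among the transcription factors, Irf1 and Stat2 were lower in A159V IgG. Irf1 (chr11:53770014-53778374), the early target with the GAS match at -90 above, was at 451, 377 and 363 CPM in WT IgG and at 190.0, 239 and 265 CPM in A159V IgG. It fell 1.72-fold (log2 fold change -0.78, SE 0.16, edgeR adjusted p = 0.00469), and this was the 1 member call that each of the 10 other settings and each left-out sample kept. Under anti-PD1 no such difference was seen, as WT mice were at 265, 249 and 228 CPM and A159V mice at 295, 224 and 214 CPM (-0.02, 95% interval -0.37 to 0.34). WT IgG thus stood above the other 3 groups, whose ranges overlapped. The antisense gene Gm17334 shares 907 bases with Irf1 and had 27 to 170 counts against at least 3593 for Irf1. How strand was counted is not stated.

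Stat2 (chr10:128270559-128292849), the STAT of ISGF3, was at 275, 352 and 314 CPM in WT IgG and at 175, 191 and 249.8 CPM in A159V IgG. It fell 1.53-fold (log2 fold change -0.61, SE 0.16, edgeR adjusted p = 0.0140). The adjusted p was 0.0648 without A159V IgG replicate 1, 0.0583 without A159V IgG replicate 2 and 0.0699 with the IgG samples alone. Under anti-PD1 the values were 300.4, 338 and 319 CPM in WT and 229.5, 278 and 216 CPM in A159V. They did not overlap, and -0.40 (SE 0.16) did not pass the test (adjusted p = 0.0865), although DESeq2 (-0.46, adjusted p = 0.0351) and a fit of the anti-PD1 groups alone (-0.48, 0.00482) called it. It was also called without WT IgG replicate 1 (0.0361) or A159V IgG replicate 5 (0.0282). Over both treatments Stat2 fell by 0.51 on the log2 scale (SE 0.11, edgeR adjusted p = 0.00354).

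Irf9 (chr14:55603571-55610030), the DNA-binding subunit of ISGF3, varied least. It was at 88.5, 94.7 and 95.9 CPM in WT IgG and at 78.6, 77.6 and 80.4 CPM in A159V IgG, with no overlap and a log2 fold change of -0.24 (SE 0.11, edgeR adjusted p = 0.109). It was called in 4 of 10 other settings, at -0.31 with DESeq2 (adjusted p = 0.0101), -0.32 with RLE (0.0432), -0.38 with upper-quartile scaling (0.0272) and -0.35 with at least 10 counts in every sample (0.0292). It was also called without WT IgG replicate 1 (0.0397) or A159V IgG replicate 5 (0.0369). Under anti-PD1 its values overlapped (-0.05, 95% interval -0.28 to 0.18). Rnf31 on the same strand shares 123 bases with Irf9 and had 890 to 1447 counts, so shared reads are uncertain.

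Socs1 was lower in A159V cells with either treatment and Socs3 under anti-PD1. Socs1 (chr16:10782240-10785536), which binds JAK kinases directly and is the main brake on the IFN-γ receptor, was at 53.8, 32.2 and 32.3 CPM in WT IgG and at 18.2, 22.2 and 24.9 CPM in A159V IgG. Under anti-PD1 it was at 41.2, 28.8 and 34.7 CPM in WT and at 15.4, 19.7 and 22.4 CPM in A159V, so the 6 A159V values lay below all 6 WT values. It fell 1.81-fold under IgG (log2 fold change -0.86, SE 0.22, edgeR adjusted p = 0.0144) and 1.82-fold under anti-PD1 (-0.87, SE 0.23, adjusted p = 0.0163). Over both treatments it fell by 0.86 (SE 0.16, adjusted p = 0.00111). The IgG call was lost without A159V IgG replicate 1 (adjusted p = 0.0615). The anti-PD1 call was lost without WT anti-PD1 replicate 1 (0.0700), WT anti-PD1 replicate 3 (0.0547) or A159V anti-PD1 replicate 1 (0.0716).

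Socs3 (chr11:117966079-117970047), which acts mainly on receptors that use gp130 and carries the GAS match at -154 above, was at 94.5, 101 and 113 CPM in WT IgG and at 81.7, 86.6 and 83.2 CPM in A159V IgG. This difference of -0.30 (SE 0.21) was not called (edgeR adjusted p = 0.298), although the values did not overlap. Under anti-PD1 WT mice were at 156, 142 and 225 CPM and A159V mice at 128, 70.8 and 98.2 CPM. Socs3 was then 1.76-fold lower in A159V (log2 fold change -0.82, SE 0.21, adjusted p = 0.0144). The call was lost without WT anti-PD1 replicate 3 (-0.59, adjusted p = 0.0863), A159V anti-PD1 replicate 2 (-0.62, 0.0578) or A159V anti-PD1 replicate 3 (-0.80, 0.0575). Under IgG, log2(Socs1/Socs3) was -1.43 ± 0.54 for WT and -1.95 ± 0.21 for A159V. Under anti-PD1 it was -2.31 ± 0.39 in WT and -2.34 ± 0.64 in A159V. This ratio did not pass the test between genotypes (difference -0.28, exact permutation p = 0.315).

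Averaged over both treatments, 6 of 9 members were called, beside 35.9% of all genes (16.8% lower and 19.1% higher; the share of higher calls fell from 53.2% to 34.4% with upper-quartile scaling), and the same count held at an unadjusted p under 0.05, beside 47.6%. Ifngr1, Stat2, Irf1, Socs1 and Socs3 were lower and Jak1 higher. Socs3 was lower by 0.56 on the log2 scale (SE 0.15, edgeR adjusted p = 0.00940). Irf1 was lower by 0.40 (SE 0.12, adjusted p = 0.0162) and lost the call without A159V anti-PD1 replicate 3 (adjusted p = 0.0521). Jak1 was higher by 0.43 (SE 0.13, adjusted p = 0.0160) and lost the call without WT IgG replicate 1 (0.27, under the fold limit) or WT IgG replicate 2 (adjusted p = 0.0609). With the leukocyte covariate, which largely coincides with the WT anti-PD1 group, no member was called, beside 0.132% of all genes.

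**Figure D3:**
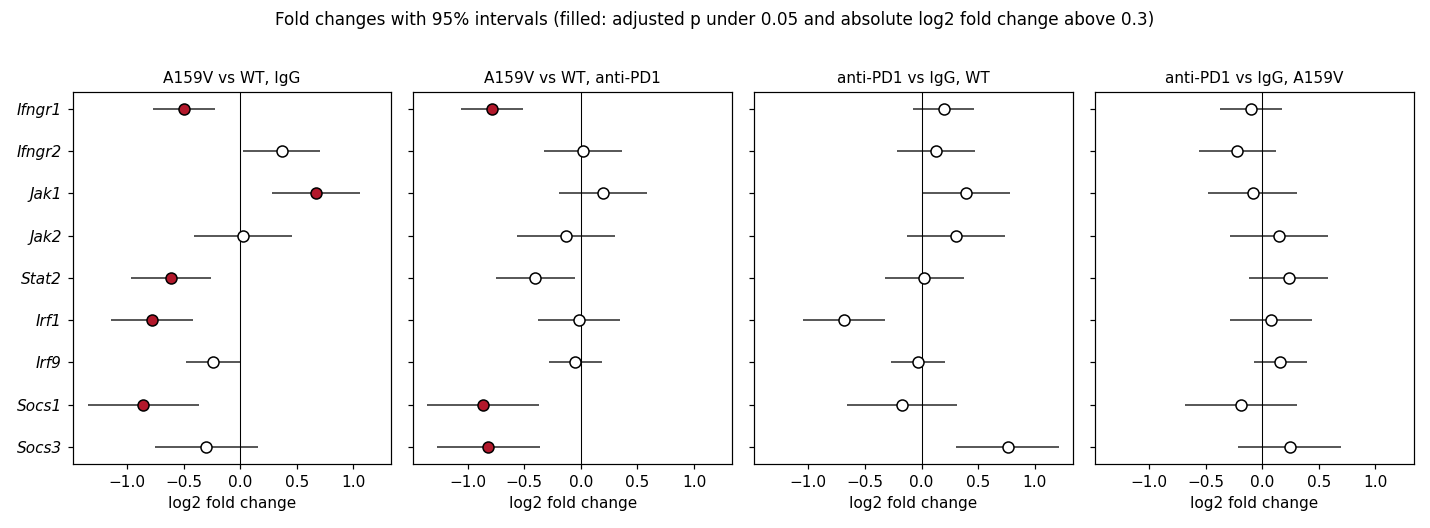
Log2 fold changes of the 9 members (points) with 95% intervals (lines) from the edgeR fit in 4 comparisons; filled points passed an adjusted p of 0.05 and an absolute log2 fold change of 0.3. Filled points number 5 for A159V against WT under IgG, 3 under anti-PD1 and 0 for anti-PD1 against IgG in either genotype.

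The response to anti-PD1 was then compared within each genotype. In WT tumors no member was called by edgeR at an adjusted p under 0.05, beside 0.628% of all genes, and 3 of 9 had an unadjusted p under 0.05, beside 27.5% of all genes. These were Irf1, with all WT anti-PD1 values below all WT IgG values (log2 fold change -0.68, SE 0.16, adjusted p = 0.0613), Socs3, with all above (0.76, SE 0.21, adjusted p = 0.0766), and Jak1 (0.39, SE 0.18, adjusted p = 0.174). DESeq2 called Irf1 and Socs3, at adjusted p of 0.00476 and 0.0190, beside 1426 of the 14254 genes it tested. Without WT IgG replicate 4 edgeR called 3 members, Irf1 (-0.75, adjusted p = 0.0138), Socs3 (0.83, 0.0274) and Jak1 (0.63, 0.0141). That fit called 23.6% of all genes, so the 3 of 9 members stood beside a far larger share than in the main fit. Without A159V IgG replicate 5 edgeR called Irf1 (adjusted p = 0.0394), beside 4.08% of all genes. Ptprc and the summed leukocyte markers were also higher in WT anti-PD1 than in WT IgG. With the leukocyte covariate no member was called in this response, as in the fit without it, and 0 of all genes tested were called. That covariate largely coincides with the WT anti-PD1 group, so this fit cannot separate leukocyte level from treatment. Ifngr1 was 0.20 higher (95% interval -0.07 to 0.46) with no overlap. The WT groups did not overlap for 4 of 9 members, beside 34.6% of all genes.

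In A159V tumors no member was called by edgeR, which called 0 of all genes tested, or by DESeq2, which called 2. None of the 9 had an unadjusted p under 0.05, beside 3.63% of all genes. The log2 fold changes ran from -0.22 for Ifngr2 to 0.24 for Socs3. The difference between the responses was called for no member by either tool, beside 0.00697% of all genes by edgeR and 1.97% by DESeq2. It was widest for Irf1 (0.76, 95% interval 0.26 to 1.26, unadjusted p = 0.00588, edgeR adjusted p = 0.204), the 1 member of 9 with an unadjusted p under 0.05, beside 17.6% of all genes. Without WT IgG replicate 4, Jak1 was called in this comparison, beside 8.07% of all genes.

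Levels between members can be compared per kb of exon. In WT IgG the mean order was Irf1 at 99.9, Stat2 at 52.9, Socs3 at 35.6, Jak1 at 20.7, Irf9 at 17.3, Ifngr1 at 15.6, Socs1 at 13.6, Jak2 at 8.63 and Ifngr2 at 6.55 CPM per kb. The ranges over mice overlapped between Jak1 and Irf9, Ifngr1 and Socs1, and Jak2 and Ifngr2, so these neighbors were not separated. Irf1 had the highest mean in all 4 groups, but in WT anti-PD1, at 62.2 CPM per kb, its range overlapped that of Socs3 at 60.4. In A159V IgG Jak1 at 32.9 CPM per kb stood between Stat2 at 34.6 and Socs3 at 29.0, with ranges that overlapped, and Jak2, Ifngr2 and Socs1 (7.49) were lowest, with ranges that overlapped. The receptor chains were at 11.1 (Ifngr1) and 8.45 CPM per kb (Ifngr2) in A159V IgG.

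Genes whose pattern over the 12 samples was most like that of a member were found by the root mean square difference of mean-centred log2 CPM. For Ifngr1, whose own SD was 0.35, they were Cd82 at 0.106, Pccb at 0.106 and Orai3 at 0.120. For Irf1 (SD 0.37) they were Kcnn4 at 0.140, Gm16973 at 0.167 and Sra1 at 0.170, and for Socs1 (SD 0.52) Phlda1 at 0.187, Gamt at 0.191 and Copz2 at 0.193. Samples share the 4 groups, so these distances describe group levels as much as mice.

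Genes around Ifngr1 on chromosome 10 were also mostly below 0 between genotypes. Of 35 tested genes within 5 Mb, 8 were called lower and 0 higher under IgG (22.9% lower), with a median log2 fold change of -0.39. On the rest of chromosome 10, which includes Stat2, 21.6% of 638 genes were called lower with a median of -0.20, and over all other tested genes 11.9% of 13666 with a median of 0.03. Under anti-PD1 these shares were 25.7%, 18.7% and 9.75%. The 8 genes called lower under IgG include Rps12, 4193 kb from the start of Ifngr1, and Snora33, Snord100 and Gm23130, which lie within Rps12. These were not called under anti-PD1. The called gene closest to Ifngr1 under IgG was Hebp2, at -1052 kb. The nearest tested genes were Tnfaip3 on one side (-0.49, edgeR adjusted p = 0.148 under IgG; -1.15, 0.00562 under anti-PD1) and Pex7 on the other (-0.38, 0.0512; -0.27, 0.172). The position of Ifngr1 and Stat2 on this chromosome was not tested as a source of their difference.

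Other genes of the pathway were read from fixed lists. Under IgG 28.0% of all genes were called by edgeR, 15.6% higher and 12.4% lower. An unadjusted p under 0.05 was met by 40.3% of all genes. It was met by 5 of 7 tested ligands and related receptor chains and by 2 of 6 other JAKs and STATs. Of 7 tested ligands and related receptor chains, Il22ra1, the interleukin-22 receptor chain, was higher in A159V IgG (log2 fold change 2.44, edgeR adjusted p = 0.000426) at 2.01, 3.51 and 3.83 CPM against 0.437, 0.673 and 0.602 CPM in WT IgG, and 6 did not pass. Of 6 other JAKs and STATs, Stat5a, which serves cytokine receptors such as that of interleukin-2, was higher (0.68, adjusted p = 0.00253). Stat4, which serves interleukin-12 signaling in lymphocytes, was lower (-2.31, adjusted p = 0.00235) at 2 to 3 counts against 8 to 13. Of 5 tested IRFs and 4 subunits of the ligase that SOCS proteins recruit, none was called under IgG in the edgeR fit, and 0 of them had an unadjusted p under 0.05. DESeq2 called Irf4, which edgeR's filter had left out, lower.

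Under anti-PD1, Il22ra1 was again higher in A159V (log2 fold change 1.80, edgeR adjusted p = 0.00233). Stat4 (-3.27, 0.000353) and Irf8, an IRF of myeloid cells and B cells (-1.71, 0.00246), were lower. Il10ra, the interleukin-10 receptor chain of leukocytes, was lower as well, with 34, 25 and 18 counts in WT anti-PD1 and 0 in all A159V anti-PD1 samples. Ptprc was lower in the same comparison (-6.25, 0.000357), and the share of leukocyte RNA in these 3 lower genes was not tested. None of the 16 other inhibitors was called there by edgeR or DESeq2, beside 21.4% of all genes by edgeR. Socs5 was the 1 with an unadjusted p under 0.05 (0.35, edgeR adjusted p = 0.0573), beside 35.8% of all genes.

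Under IgG, 4 of the 16 other inhibitors were called, near the 28.0% of all genes. In A159V the phosphatase genes Ptpn1, Ptpn6 and Ptpn11 were higher by 0.44, 0.68 and 0.55 on the log2 scale (edgeR adjusted p = 0.0173, 0.0398 and 0.0217), and the SOCS family gene Socs4 was at -0.65 (0.0234) with values that overlapped between groups. These calls were not stable. Of 10 other settings and 12 fits with a sample left out, Ptpn6 lost its call in 8 and 10, Ptpn1 in 5 and 4, Ptpn11 in 4 and 4, and Socs4 in 3 and 2. Without WT IgG replicate 1 Ptpn11 was at 0.32, and without WT IgG replicate 4 Socs4 was at -0.42. In WT tumors the 1 gene of these lists called in the anti-PD1 response was Irf8, at 1.04, 1.53 and 2.31 CPM under IgG and 6.06, 7.91 and 3.79 CPM under anti-PD1 (log2 fold change 1.85, edgeR adjusted p = 0.0301), beside 0.495% of all genes called higher. The call was lost in 5 of the 12 fits that leave out 1 sample (adjusted p up to 0.123, without WT anti-PD1 replicate 2), namely those without WT IgG replicate 1 or 2, WT anti-PD1 replicate 1 or 2, or A159V anti-PD1 replicate 3. Ptprc was higher in the same mice.

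Genes that IFN-γ is known to induce were mostly lower in A159V IgG. Of 15 such targets, 6 were called lower, beside 12.4% of all genes, and 1 higher, beside 15.6%. Among the 15, 14 were below 0, and the median log2 fold change was -0.59 beside 0.02 over all genes. Ciita, the master regulator of MHC class II, was at 1.37, 1.22 and 2.26 CPM in WT IgG and 0.159, 0.288 and 0.213 CPM in A159V IgG (log2 fold change -2.84, edgeR adjusted p = 0.00708). Psmb9, an immunoproteasome subunit, fell from 162, 115 and 100.2 CPM to 56.5, 66.3 and 67.9 CPM (-0.99, adjusted p = 0.00143). Iigp1, an IFN-γ-inducible GTPase, fell by 0.97 on the log2 scale (adjusted p = 0.0162). Icam1, an adhesion molecule also induced by NF-κB, went the other way, from 4.70, 3.06 and 4.82 CPM to 11.4, 8.64 and 8.72 CPM (1.19, adjusted p = 0.00574). The other targets called lower were the GTPase genes Gbp2 (-0.89, adjusted p = 0.0179) and Igtp (-0.72, 0.00808) and the immunoproteasome gene Psmb8 (-0.73, 0.0147).

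Under anti-PD1, 0 of the 15 targets were called lower by edgeR or DESeq2, 3 had an unadjusted p under 0.05 (35.8% of all genes did), and Icam1 was higher (0.79, edgeR adjusted p = 0.0407), a call lost with RLE or upper-quartile scaling. The difference between genotypes in response to anti-PD1 passed the edgeR test for none of the 15, with 6 at an unadjusted p under 0.05, beside 17.6% of all genes. With the leukocyte covariate 2 targets were called lower under IgG, and without A159V IgG replicate 1 there were 4. Of the 11 targets in the promoter table, 8 held a GAS or ISRE match, as did 4 of the 9 members. Over the 27025 symbols in that table, 9.55% held a GAS match and 3.99% an ISRE match in any of their promoters. The share of all symbols with either motif was not computed.

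**Figure D4:**
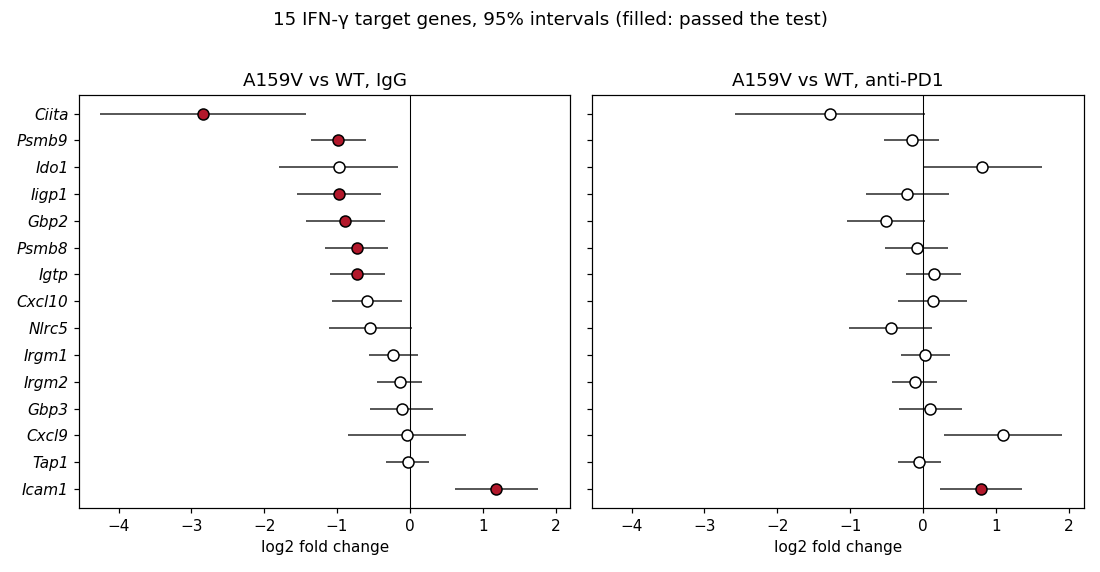
Log2 fold changes of 15 IFN-γ target genes (points) with 95% intervals (lines) in A159V against WT under IgG (left) and anti-PD1 (right), ordered by the IgG value; filled points passed the test. Under IgG 6 filled points lie below 0 and Icam1 above it, whereas under anti-PD1 Icam1 is the only filled point.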

How the data were processed

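RNA was sequenced as paired reads of 100 bp. The study's methods state that the authors aligned the reads to mm10 with STAR and counted reads per gene with summarizeOverlaps; they deposited raw counts without normalization. The strand setting is not stated. Groups came from the sample titles. Tests used edgeR 4.0.16 under R 4.3.3 (filterByExpr, TMM, quasi-likelihood fit of 4 groups on 12 samples, 8 residual degrees of freedom). Contrasts were the genotypes under IgG, under anti-PD1 and averaged, anti-PD1 versus IgG in each genotype, and the interaction. P-values were adjusted by Benjamini-Hochberg over the 14340 genes tested. Symbols, mm10 positions and exon lengths came from GENCODE M21. Floors of 3 counts and intervals cover counting error or spread between mice only, since reads carry no molecular identifiers.

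The members, gene lists and ratios were chosen with earlier results of these data known. Genes named beyond the members were, per list, up to 3 per direction with the largest change among those called under IgG or in the WT response, and the 3 nearest patterns to Ifngr1, Irf1 and Socs1. Genes named outside this rule (Ptprc, Cd3e, the epithelial markers, Ifng, the genes beside Ifngr1, Irf4, Socs5, those called under anti-PD1) were chosen after their values were seen. Alternatives were RLE and upper-quartile scaling, other filters, DESeq2 1.42.0, voom in limma 3.58.1, no fold limit, the groups of a contrast alone, a leukocyte covariate, the replicate number as a block, and each sample left out. The edgeR fit was tested first on simulated counts with 200 genes changed in A159V IgG. For the genotypes under IgG it called 0% of these at a log2 change of 0.5, 57.5% at 1 and 90.5% at 2. Of the calls, 8.73% were false at a change of 1 and 3.72% at 2. Far more genes than 200 were called in the data (4010 under IgG), so these shares need not hold there. Figures used Python 3.11.15 and matplotlib 3.10.9.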

Additional observations from a re-analysis of the deposited data

How the results depend on the processing

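Among the 58 counts of called members recomputed under settings that keep all samples of the contrast, 50 stayed within 1.5 times the reported count. Those that did not were as follows. For A159V IgG versus WT IgG, 1 member was called with the IgG groups alone and 3 with the leukocyte covariate. For A159V anti-PD1 versus WT anti-PD1 and for the average of both, 0 were called with the leukocyte covariate. For the WT response, 2 were called without a filter and 2 with DESeq2. With the replicate number as a block, 3 were called in the WT response (Jak1, Irf1 and Socs3) and 2 in the interaction (Jak1 and Irf1). It also called Ifngr2 under IgG (0.49, adjusted p = 0.0346) and Stat2 under anti-PD1 (0.0141), but did not change the counts of the other comparisons by over 1.5 times. The numbers come from sample titles of different mice, and same-numbered samples deviated together by r = -0.178 to 0.205 (over 0.1 in 3 of 13 pairs), so they were not taken to pair samples. WT IgG 4 and A159V IgG 5 have numbers of their own, which the block absorbs. Leaving out 1 sample gave 3 to 6 calls under IgG (3 without A159V IgG replicate 1 or replicate 2), 1 to 4 under anti-PD1 (1 without WT anti-PD1 replicate 3), 5 to 6 for the average, 0 to 3 in the WT response, 0 to 1 in the interaction and 0 in the A159V response. Over all genes, calls numbered 4010 under IgG (1399 with the groups alone, 1939 with the leukocyte covariate, 2578 to 4717 with a sample left out) and 3075 under anti-PD1 (5320 with the groups alone, 2 with the covariate, 2014 with at least 10 counts, 5018 with the block, 1519 to 4134 with a sample left out). The WT response had 90 (1426 with DESeq2, 771 without a filter, 188 with voom, 25 with at least 10 counts, 4650 with the block, 0 with the covariate or the groups alone, 1 to 3458 with a sample left out). The interaction had 1 (272 with DESeq2, 37 without a filter, 2760 with the block, 0 to 1182 with a sample left out), the average 5153 (19 with the covariate) and the A159V response 0 (2 with DESeq2). The 3 ratio results kept their side of the threshold under a pseudocount of 2 and each left-out sample, with ranges of -0.89 to -0.78 for the receptor chains and 0.43 to 0.59 for the kinases.

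Among the members, signs turned only for values that were not called. Jak2 under IgG became -0.054 with RLE, -0.12 with upper-quartile scaling, -0.034 without a filter, -0.094 with at least 10 counts in every sample, -0.044 with DESeq2 and -0.057 with the groups alone (-0.18 to 0.16 with a sample left out). Ifngr2 under anti-PD1 became -0.048, -0.076, -0.0073, -0.063, -0.039 and -0.064 in the same order (-0.067 to 0.083 with a sample left out). Stat2 in the WT response became -0.021 with upper-quartile scaling and -0.00029 with the groups alone (-0.068 to 0.10 with a sample left out). With the leukocyte covariate, Jak2 and Irf1 under anti-PD1 became 0.20 and 0.26, and Ifngr2, Jak1 and Irf9 in the WT response -0.70, -0.063 and 0.16. With the block, Jak2 in the A159V response became -0.0017. With a sample left out, Irf1 ran from -0.17 to 0.075 under anti-PD1 and from -0.080 to 0.22 in the A159V response, and Jak2 from -0.029 to 0.30 in the latter. In the WT response Ifngr2 ran from -0.042 to 0.21, Irf9 from -0.076 to 0.014 and Socs1 from -0.31 to 0.11. The cause was not tested. For the target list and other named genes, the alternatives were chosen after seeing the data. Of the 15 targets, 2 to 9 were then called lower under IgG. No interaction or average could be had from the groups of a single contrast. With n = 3 the 95% intervals of uncalled members reach well past the fold limit of 0.3 in places (-0.40 to 0.45 for Jak2 under IgG), so a missed threshold does not show equal levels.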
